A study of Mus musculus with 30 samples.

Results

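The genes described here are 38 autophagy genes, a list of machinery components, cargo receptors and regulators chosen by gene symbol, of which 35 were measured among the 18781 genes of the array. For each gene the probe set with the highest mean over the arrays was taken among those annotated to that gene alone. Becn1, the scaffold of the lipid kinase complexes, and Atg4d, a protease of Atg8 proteins, were covered only by probe sets that name several genes, and the cargo receptor Optn was not listed in the annotation used. The mice were male C57Bl/6 animals (C57Bl/6 J in the study's methods) of 10 to 12 weeks on chow, fed ad libitum or left without food for 24 h, with 5 mice per diet and no genetic change or other agent in either group. Total RNA of 3 tissues, namely the epididymal white fat pad (WAT), the liver (LIV) and a skeletal muscle sample (SM), was hybridised to Affymetrix Mouse Gene 1.1 ST arrays, which gave 30 arrays in 6 groups of 5. All values are log2 expression after robust multi-array averaging (RMA), and all changes are fasted minus fed differences on that log2 scale, with their standard error (SE).

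Macroautophagy encloses cytoplasm, proteins and organelles in a double membrane, the autophagosome, which fuses with lysosomes so that its content is degraded and reused. A kinase complex starts the process when nutrients are short, a lipid kinase complex marks the membrane with phosphatidylinositol 3-phosphate, lipid transfer proteins and conjugation enzymes extend it, and ubiquitin-like Atg8 proteins coupled to lipid tether it and recruit cargo receptors. In fasting the liver and muscle use autophagy to release amino acids and lipids, and in muscle the FoxO transcription factors are known to raise the transcription of several of these genes. Transcript levels do not measure the flux of material through the pathway.

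Arrays fed LIV 4 and fasted SM 5 were left out of the fit, and their values are given beside the others. They had the lowest mean correlation with their own group, 0.987 and 0.980, and the mean of 6 lymphocyte markers was 8.32 in fasted SM 5 against at most 4.11 in the other fasted SM arrays. The tissue labels held against marker genes: the mean of 9 adipocyte markers was 11.2 to 11.9 in WAT, that of 8 hepatocyte markers 12.4 to 12.5 in LIV and that of 12 muscle fibre markers 12.5 to 12.6 in SM, each against at most 5.33 in a tissue where it should be absent, except that the adipocyte mean in LIV reached 5.76 and that in SM lay between 7.90 and 9.81. The SM arrays thus held transcripts of the adipocyte list, and the mean of 7 slow fibre markers also varied, from 5.39 to 10.2 in fed SM and from 8.34 to 9.86 in fasted SM. A gene was called at an adjusted p under 0.05 (limma, Benjamini-Hochberg over all probe sets) and a change of at least 1.3-fold. In bulk tissue, fewer cells of a type and less RNA per cell cannot be told apart.

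Most of the genes called after fasting had risen, and more of them were called in WAT and SM than in LIV. In WAT 11 of the 35 genes rose and 3 fell, against 7.99% of all genes called up and 7.75% called down. In LIV 5 rose and 1 fell, with 3.54% of all genes called up and 4.01% called down. In SM 12 rose and 3 fell, with 7.8% of all genes called up and 5.78% called down. The median change of the 35 genes was 0.19 in WAT, 0.066 in LIV and 0.24 in SM, against medians of 0.0053, 0.032 and -0.004 over all genes. In total 20 genes were called in at least 1 tissue (28.6% of all genes were) and 15 in none. Both WAT and SM showed a rise for 9 genes (2.4% of all genes), and 6 of these were not called in LIV (1.88% of all genes). Only Map1lc3b, Bnip3 and Trp53inp1 rose in all 3 tissues (0.421% of all genes did), and the call of Trp53inp1 in LIV depended on single arrays. Trp53inp2 was the 1 gene called in opposite directions (1.3% of all genes were).

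**Figure D1:**
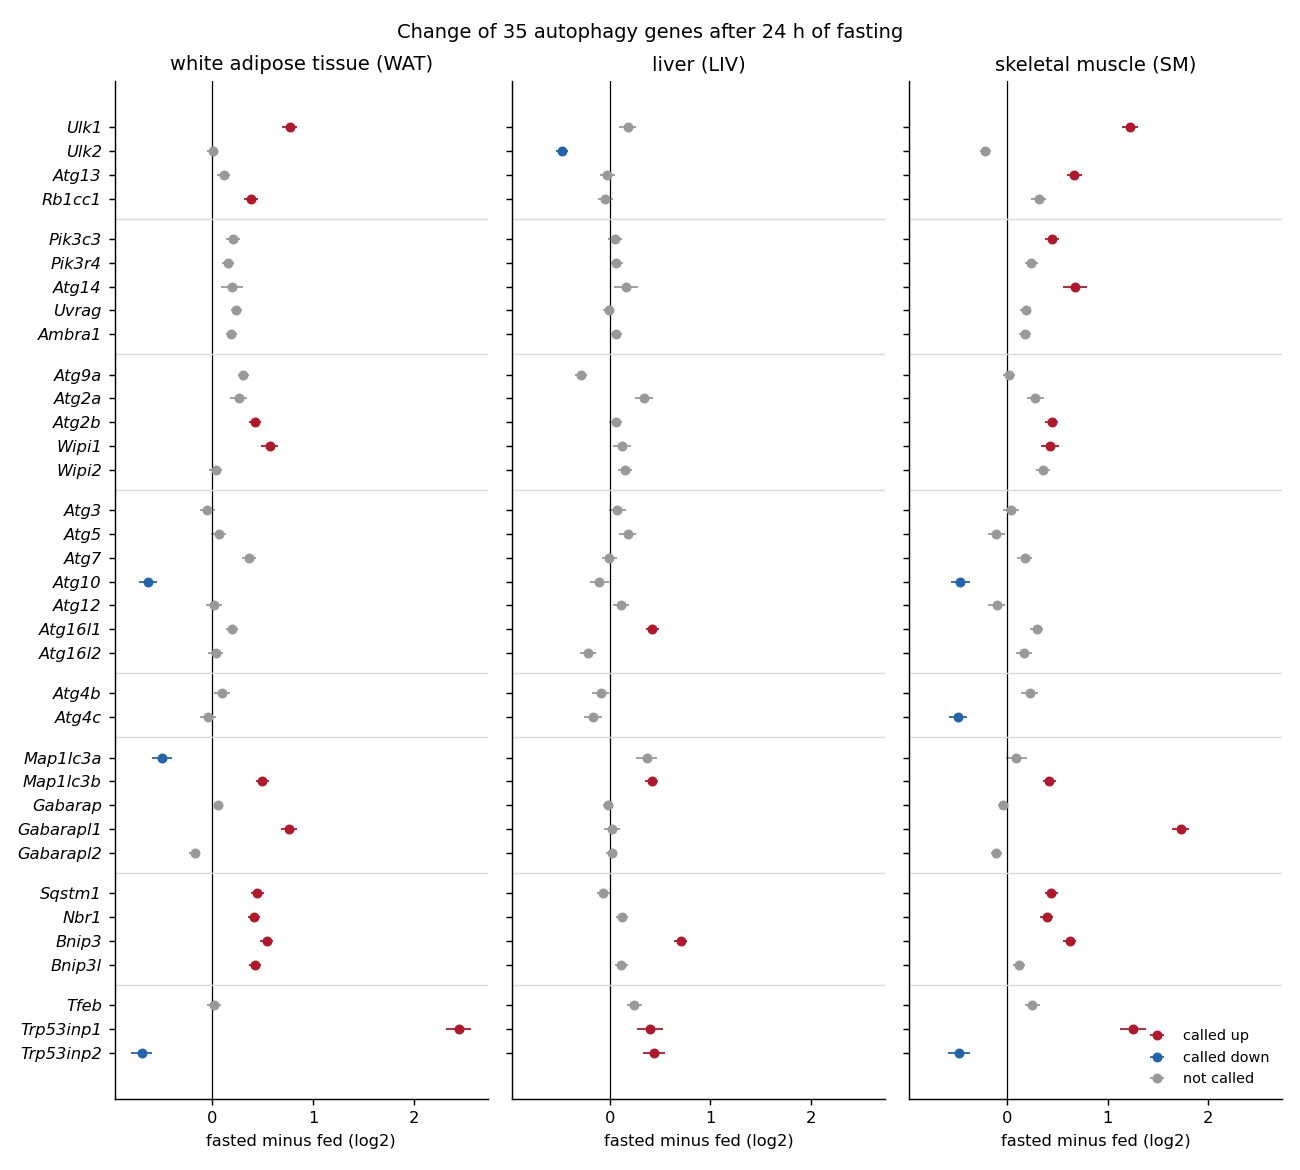
Change of each of the 35 measured autophagy genes in WAT, LIV and SM, as fasted minus fed on the log2 scale with its SE; grey lines part the groups by role, red points were called up, blue points down and grey points were not called. Trp53inp1 in WAT (2.44) and Gabarapl1 in SM (1.72) lie farthest to the right, and most points of LIV lie near 0.

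Promoter sequences are shown for 4 genes that stand for the range of responses: Bnip3, which rose in all 3 tissues, Ulk1 and Gabarapl1, with large rises in WAT and SM, and Atg3, which was called in none. Each is the 250 bases before the RefSeq transcription start, 5′ to 3′ on the gene's strand, in mouse build GRCm38.p6, with Bnip3 at chr7:138909507-138909756 on the minus strand, Ulk1 at chr5:110810082-110810331 on the minus strand, Gabarapl1 at chr6:129532942-129533191 on the plus strand and Atg3 at chr16:45158579-45158828 on the plus strand. Capitals mark matches to the E-box CACGTG or its extended form GTCACGTG, letters bound by the TFEB family among other factors; the FoxO element GTAAACA was searched too, each on both strands, and the extended form contains the E-box.
Bnip3: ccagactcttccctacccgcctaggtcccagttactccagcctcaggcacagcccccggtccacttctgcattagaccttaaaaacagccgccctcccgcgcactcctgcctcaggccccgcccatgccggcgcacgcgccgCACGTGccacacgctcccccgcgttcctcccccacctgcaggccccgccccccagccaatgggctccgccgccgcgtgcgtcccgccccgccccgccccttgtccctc
Ulk1: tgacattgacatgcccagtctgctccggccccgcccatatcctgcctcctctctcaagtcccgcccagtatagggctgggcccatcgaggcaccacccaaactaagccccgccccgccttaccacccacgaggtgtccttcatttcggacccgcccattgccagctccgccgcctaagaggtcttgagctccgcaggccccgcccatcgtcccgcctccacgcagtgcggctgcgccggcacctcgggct
Gabarapl1: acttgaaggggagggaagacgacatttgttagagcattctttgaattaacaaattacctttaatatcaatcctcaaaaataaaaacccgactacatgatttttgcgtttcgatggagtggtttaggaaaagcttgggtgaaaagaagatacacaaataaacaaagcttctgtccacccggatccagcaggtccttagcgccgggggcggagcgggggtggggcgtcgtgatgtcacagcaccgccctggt
Atg3: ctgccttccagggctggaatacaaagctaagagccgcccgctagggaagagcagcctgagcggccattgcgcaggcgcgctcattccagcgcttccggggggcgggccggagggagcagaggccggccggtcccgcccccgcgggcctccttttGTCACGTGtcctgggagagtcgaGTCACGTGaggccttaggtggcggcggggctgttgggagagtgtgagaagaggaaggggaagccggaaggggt
Promoters of 28 of the 35 genes were in the RefSeq table, and those of Atg12, Atg16l1, Map1lc3a, Rb1cc1, Pik3c3, Bnip3l and Trp53inp1 were not. The E-box occurred in 4 of the 28 (14.3%), Atg3, Atg5, Atg7 and Bnip3, against 6.02% of 32851 promoters in the table. In Bnip3 it started 108 bases before the transcription start and in Atg3 94 and 71 bases before it. The extended form occurred in Atg3 and Atg7 (7.14% against 1.85%), and the searched FoxO letters GTAAACA in 0 of the 28 (0% against 3.17%). Other forms of the FoxO element were not searched. The shares of the 28 count genes, with a match in any promoter of the gene. The shares set against them count single promoters, 32851 of 27025 genes, so the measures are not quite alike. Of the 4 genes with an E-box, Bnip3 was called and the 3 conjugation genes were not. A match is a description of letters, and its absence says only that these letters are not in this window.

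Among the 4 genes of the initiation complex, Ulk1, the kinase that starts autophagosome formation, changed most. In WAT Ulk1 read 7.92, 7.97, 8.04, 8.07 and 7.94 in the fed arrays and 8.77, 8.69, 8.69, 9.02 and 8.59 in the fasted arrays. In SM Ulk1 read 9.10, 9.07, 9.01, 9.26 and 9.12 in the fed arrays and 10.16, 10.29, 10.38 and 10.50 in the fasted arrays, with 10.19 in the array left out. All fasted arrays of both tissues lay above all fed arrays. The rise was 0.77 ± 0.076 in WAT (adjusted p = 1.15e-08) and 1.22 ± 0.080 in SM (adjusted p = 6.09e-12), a 1.70-fold and a 2.33-fold change. In LIV the fed arrays (8.99, 8.90, 8.62 and 8.90, with 8.94 in the array left out) overlapped the fasted arrays (8.97, 9.01, 8.98, 9.14 and 9.05), and the difference of 0.18 ± 0.080 was not called (adjusted p = 0.16). The changes of Ulk1 themselves differed between every pair of tissues, by 0.59 between WAT and LIV, by -0.46 between WAT and SM and by 1.05 between SM and LIV.

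Ulk2, the paralogue of Ulk1, moved differently. In LIV it read 8.83, 8.96, 8.92 and 8.92 in the fed arrays and 8.48, 8.35, 8.34, 8.41 and 8.60 in the fasted arrays, without overlap, and fell by 0.47 ± 0.058 (adjusted p = 1.08e-06). The left-out array fed LIV 4 read 8.37, inside the fasted range, and with all 30 arrays the fall was -0.36, which missed the minimum fold (adjusted p = 0.00302). In WAT its change was 0.0048 ± 0.054, and in SM it was -0.21 ± 0.058, under the minimum fold at an adjusted p of 0.00679. The changes of Ulk2 differed between WAT and LIV by 0.48 (adjusted p = 7.17e-05). Ulk1 and Ulk2 were thus called in different tissues, Ulk1 upward in WAT and SM and Ulk2 downward in LIV.

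Atg13, the regulatory subunit that links the kinase to nutrient signals, rose in SM, from 9.51, 9.64, 9.43, 9.69 and 9.40 in the fed arrays to 10.03, 10.32, 10.17 and 10.27 in the fasted arrays, with 10.07 in the array left out. The groups did not overlap, and the rise was 0.67 ± 0.073 (adjusted p = 8.11e-08). Its changes in WAT (0.11 ± 0.069) and LIV (-0.022 ± 0.073) were not called, and the change in SM differed from both, by 0.56 from WAT and by 0.69 from LIV. Rb1cc1, the large scaffold of the complex also called FIP200, rose by 0.38 ± 0.068 in WAT (adjusted p = 8.38e-05) and showed 0.31 ± 0.072 in SM, under the minimum fold. The call of Rb1cc1 lay at the edge of the minimum fold, and its second probe set, of lower mean level (5.30 against 8.69), gave -0.096 in WAT (adjusted p = 0.558).

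The lipid kinase complexes make phosphatidylinositol 3-phosphate at the forming membrane, and 2 of their 5 measured genes were called, both in SM. In SM 7.8% of all genes were called up and 5.78% down. Atg14, the subunit that directs the kinase to sites of autophagosome formation, read 7.27, 7.17, 7.13, 7.49 and 7.10 in fed SM and 7.70, 7.74, 7.94 and 8.24 in fasted SM, with 7.49 in the array left out. The arrays in the fit did not overlap, and the left-out array equalled the highest fed array to 2 decimals. The rise was 0.67 ± 0.12 (adjusted p = 7.86e-05), and the changes in WAT (0.20 ± 0.11, adjusted p = 0.222) and LIV (0.16 ± 0.12, adjusted p = 0.435) were not called. The change of Atg14 in SM differed from that in WAT by 0.48 (adjusted p = 0.0412) and from that in LIV by 0.51 (adjusted p = 0.0329). Pik3c3, the catalytic subunit Vps34, rose by 0.45 ± 0.074 in SM (adjusted p = 3.89e-05). Its change in WAT was 0.20 ± 0.069, which passed the test (adjusted p = 0.0298) and missed the minimum fold, and the difference between WAT and SM, -0.24 ± 0.10, was not called (adjusted p = 0.105). Pik3r4, its regulatory partner, Uvrag, the subunit of the endosomal complex, and Ambra1, a regulator of the complex, changed by 0.24, 0.19 and 0.18 in SM and by 0.16, 0.24 and 0.19 in WAT, all under the minimum fold. In LIV the 5 measured genes of the group ranged from -0.012 to 0.16 and 0 were called. That count of 0 was near the share of all genes in LIV, 3.54% called up and 4.01% down.

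Of the 5 genes for membrane supply and for binding of the lipid mark, Wipi1 and Atg2b rose in WAT and SM. Wipi1, a protein that binds phosphatidylinositol 3-phosphate, read 8.21, 8.18, 8.08, 7.99 and 8.23 in fed WAT and 8.81, 8.87, 8.72, 8.80 and 8.33 in fasted WAT. In SM Wipi1 read 8.63, 8.73, 8.65, 8.68 and 8.68 in the fed arrays and 9.08, 8.93, 9.18 and 9.23 in the fasted arrays, with 8.76 in the array left out. All fasted arrays lay above the fed ones, but fasted WAT 5 and the left-out fasted SM array came close to them. The rise was 0.57 ± 0.084 in WAT (adjusted p = 6.66e-06) and 0.43 ± 0.089 in SM (adjusted p = 6.20e-04), and with all 30 arrays the rise in SM was 0.36 and missed the minimum fold. In LIV the fed arrays read 7.41, 7.34, 7.48 and 7.68, with 8.02 in the array left out, and the fasted arrays 7.57, 7.48, 7.70, 7.73 and 7.52, which overlapped (0.12 ± 0.089).

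Atg2b, which transfers lipid into the growing membrane, rose by 0.42 ± 0.059 in WAT and by 0.44 ± 0.062 in SM (adjusted p = 2.59e-06 and 4.11e-06), and its second probe set was called in the same tissues (0.54 and 0.40). Its paralogue Atg2a changed by 0.26, 0.34 and 0.28 in WAT, LIV and SM, each under the minimum fold at an adjusted p between 0.0102 and 0.0207. Atg9a, the lipid scramblase that seeds the membrane, was not called in any tissue, yet its changes of 0.30 in WAT and -0.29 in LIV differed by 0.59 (adjusted p = 4.09e-06). Wipi2, which recruits the conjugation machinery, showed 0.35 ± 0.068 in SM, under the minimum fold. The group thus held 2 called genes of 5 in WAT and in SM and 0 in LIV. Of all genes 7.99% were called up and 7.75% down in WAT, 7.8% and 5.78% in SM, and 3.54% and 4.01% in LIV. With 5 genes, a count of 0 in LIV was near the share of all genes.

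The conjugation enzymes, which couple Atg12 to Atg5 and Atg8 proteins to lipid, held 1 called gene of 7 in each tissue. Among all genes 7.99% were called up and 7.75% down in WAT, 3.54% and 4.01% in LIV, and 7.8% and 5.78% in SM. A count of 1 in 7 was thus near the share of all genes called in either direction in WAT and SM. Atg10, the E2-like enzyme that couples Atg12 to Atg5, fell in both WAT and SM. In WAT it read 7.96, 7.94, 8.02, 7.99 and 7.92 in the fed arrays and 7.17, 7.39, 7.40, 7.18 and 7.50 in the fasted arrays. The SM arrays read 8.31, 8.19, 8.28, 8.27 and 8.44 in fed mice and 7.71, 7.78, 7.99 and 7.85 in the fasted arrays, with 7.74 in the array left out. The fasted arrays lay below every fed array in both tissues, and the changes were -0.64 ± 0.089 in WAT (adjusted p = 3.10e-06) and -0.46 ± 0.095 in SM (adjusted p = 5.03e-04). In LIV the fed arrays of Atg10 (7.01, 7.24, 7.00 and 7.12, with 6.49 in the array left out) overlapped the fasted arrays (7.04, 6.96, 6.60, 7.05 and 7.30), and the changes in WAT and LIV differed by -0.53 (adjusted p = 0.00411).

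Atg16l1, which directs the conjugation to the membrane, was the 1 gene of the group that rose, in LIV. It read 7.71, 7.74, 7.69 and 7.70 in fed LIV, with 7.34 in the array left out, and 8.12, 8.17, 8.06, 8.18 and 8.13 in fasted LIV. The groups did not overlap and the rise was 0.42 ± 0.064 (adjusted p = 2.82e-05). Its changes in WAT (0.19 ± 0.060) and SM (0.30 ± 0.064) stayed under the minimum fold at adjusted p of 0.017 and 9.29e-04. The other 5 genes were called in no tissue: the E2-like enzyme Atg3 ranged from -0.051 to 0.076 over the tissues, the conjugated proteins Atg5 and Atg12 from -0.11 to 0.18 and from -0.10 to 0.11, and the paralogue Atg16l2 from -0.22 to 0.17. The E1-like enzyme Atg7 showed 0.36 ± 0.069 in WAT, which passed the test (adjusted p = 1.90e-04) and missed the minimum fold. Of the proteases that trim Atg8 proteins, Atg4c fell by 0.48 ± 0.088 in SM (adjusted p = 1.41e-04) and differed there from WAT by 0.44 (adjusted p = 0.0116), while Atg4b ranged from -0.091 to 0.23.

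The 5 Atg8 genes, whose proteins coat the autophagosome, did not move together. Gabarapl1, of the GABARAP subfamily, read 9.49, 9.14, 9.20, 9.19 and 8.98 in fed SM and 10.75, 10.94, 10.88 and 11.14 in fasted SM, with 10.93 in the array left out. In WAT it read 10.44, 10.49, 10.47, 10.62 and 10.57 in the fed arrays and 11.29, 11.21, 11.17, 11.41 and 11.33 in the fasted arrays. The groups were far apart in SM, where the rise of 1.72 ± 0.083 was 3.30-fold (adjusted p = 1.97e-14), and did not overlap in WAT, where it was 0.76 ± 0.079 (adjusted p = 2.34e-08). In LIV the fed arrays read 11.47, 11.23, 11.34 and 11.38, with 11.38 in the array left out, and the fasted arrays 11.32, 11.33, 11.33, 11.54 and 11.37. These overlapped, and the difference was 0.023 ± 0.083. The change of Gabarapl1 differed between every pair of tissues, by 1.70 between SM and LIV (adjusted p = 7.01e-11), by 0.74 between WAT and LIV and by -0.96 between WAT and SM.

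The fed level of Gabarapl1 was highest in LIV, where its change was not called, and lowest in SM, where it rose most. It was 11.36 ± 0.098 in LIV (SD, n = 4), 10.52 ± 0.076 in WAT and 9.20 ± 0.18 in SM (SD, n = 5 each), and the fed level of SM differed by -2.15 from that of LIV and by -1.32 from that of WAT. After fasting its mean was 11.38 in LIV, 11.28 in WAT and 10.93 in SM. Ulk1, which also rose more in SM than in WAT, had its highest fed level in SM (9.11) and its lowest in WAT (7.99).

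Map1lc3b, which encodes the LC3B protein used to follow autophagosomes, rose in every tissue, by 0.42 to 0.49. In WAT it read 10.76, 10.71, 10.57, 10.89 and 10.77 in the fed arrays and 11.33, 11.22, 11.25, 11.32 and 11.05 in the fasted arrays. In LIV it read 9.92, 9.88, 9.85 and 9.98 in the fed arrays, with 9.96 in the array left out, and 10.31, 10.32, 10.31, 10.44 and 10.24 in the fasted arrays. In SM it read 10.40, 10.65, 10.43, 10.56 and 10.43 in the fed arrays and 10.98, 10.85, 10.87 and 10.96 in the fasted arrays, with 10.96 in the array left out. No fasted array overlapped the fed arrays of its tissue. WAT showed a rise of 0.49 ± 0.062, LIV of 0.42 ± 0.066 and SM of 0.42 ± 0.066, with adjusted p of 6.24e-07, 5.15e-05 and 2.07e-05, and no difference between tissues was called (the greatest was 0.077 ± 0.091 between WAT and LIV, adjusted p = 0.646). Its second probe set, of nearly the same mean level, gave 0.46, 0.41 and 0.42. Whether either probe set reads the gene itself or a near-identical copy was not tested.

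Map1lc3a, the LC3A gene, fell by 0.50 ± 0.097 in WAT (adjusted p = 2.15e-04) and showed 0.37 ± 0.10 in LIV (adjusted p = 0.0164, under the minimum fold) and 0.094 ± 0.10 in SM. Its change in WAT differed from that in LIV by -0.87 (adjusted p = 5.85e-05) and from that in SM by -0.60 (adjusted p = 0.00338). In WAT, then, LC3A fell while LC3B rose. Gabarap and Gabarapl2, both at high levels of 10.8 to 11.9 in every group, were called in no tissue, with changes of -0.039 to 0.054 and of -0.18 to 0.018. Gabarapl2 was read by 1 probe set, and whether that set reads the gene itself or a near-identical copy was not tested.

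**Figure D2:**
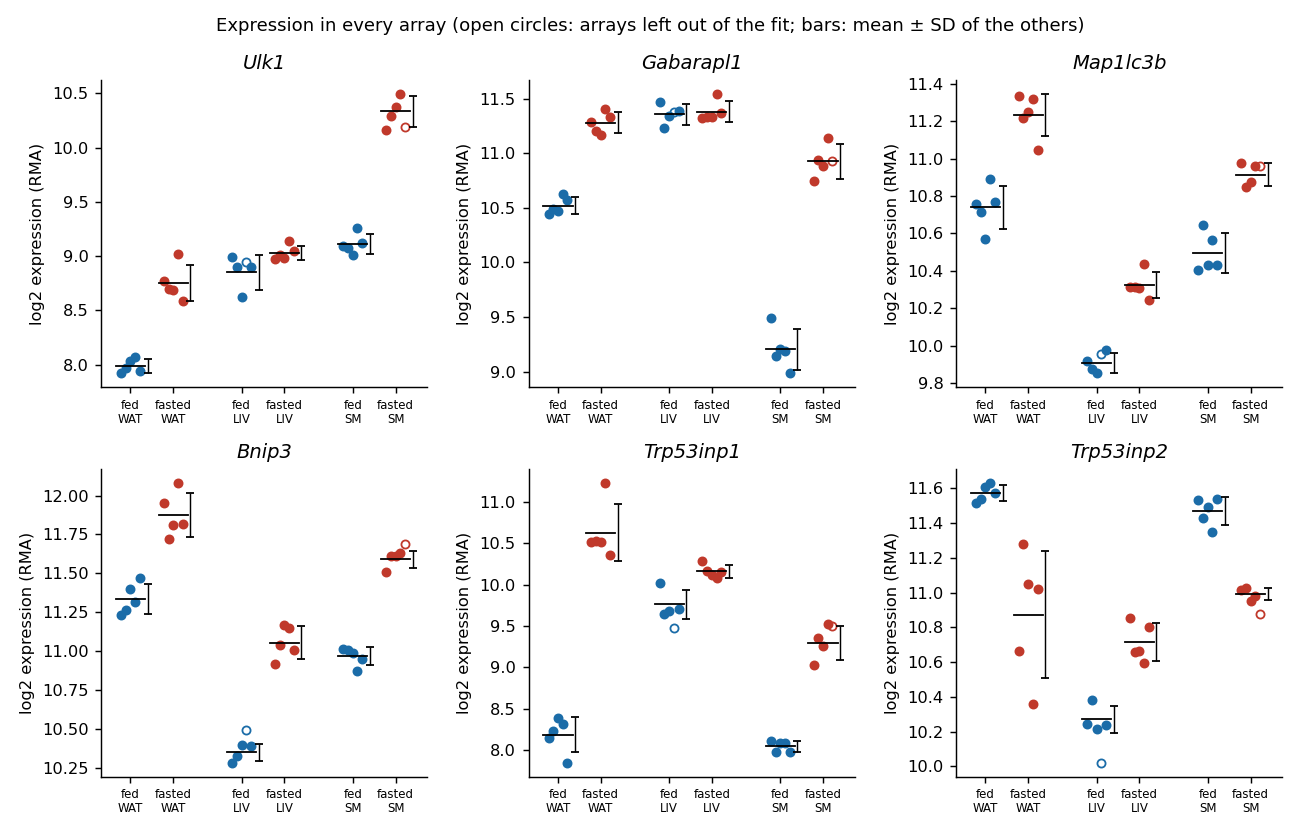
log2 expression of 6 autophagy genes in every array, fed (blue) and fasted (red), with open circles for the 2 arrays left out of the fit and bars for the mean ± SD of the others; the vertical scales differ between panels and do not start at 0. Fasted and fed arrays are separate in each tissue for Map1lc3b and Bnip3, Gabarapl1 overlaps in LIV, and Trp53inp2 lies lower after fasting in WAT and SM and higher in LIV.

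The cargo receptors tie cargo to the Atg8 coat, and all 4 measured rose in WAT, 3 in SM and 1 in LIV. Of all genes 7.99% were called up in WAT, 7.8% in SM and 3.54% in LIV. Bnip3, a mitochondrial outer membrane protein that serves as a receptor for the removal of mitochondria, rose in every tissue. It read 11.23, 11.27, 11.40, 11.32 and 11.47 in fed WAT and 11.95, 11.72, 11.81, 12.08 and 11.81 in fasted WAT. In LIV it read 10.29, 10.33, 10.40 and 10.39 in the fed arrays, with 10.50 in the array left out, and 10.92, 11.04, 11.17, 11.15 and 11.01 in the fasted arrays. In SM it read 11.02, 11.01, 10.99, 10.88 and 10.95 in the fed arrays and 11.51, 11.61, 11.61 and 11.63 in the fasted arrays, with 11.69 in the array left out. No fasted array overlapped the fed arrays of its tissue, and the fed level was lowest in LIV. WAT showed a rise of 0.54 ± 0.063, LIV of 0.70 ± 0.067 and SM of 0.62 ± 0.067, with adjusted p of 1.74e-07, 1.41e-08 and 4.97e-08, and no difference between tissues was called (the greatest was -0.17 ± 0.091 between WAT and LIV, adjusted p = 0.245). The second probe set of Bnip3 gave 0.65, 0.84 and 0.76 and the same calls. Whether either set of Bnip3 or of Bnip3l reads the gene itself or a near-identical copy was not tested. The promoter of Bnip3 holds the E-box marked in capitals.

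Bnip3l, the related mitochondrial receptor also called Nix, rose by 0.42 ± 0.058 in WAT (adjusted p = 2.45e-06) and showed 0.12 ± 0.062 in both LIV and SM, with 0.45, 0.092 and 0.12 in WAT, LIV and SM from its second probe set. Sqstm1, which encodes the ubiquitin-binding receptor p62, rose by 0.45 ± 0.062 in WAT and by 0.44 ± 0.066 in SM (adjusted p = 2.56e-06 and 9.10e-06), and its change of -0.064 in LIV differed from both, by 0.51 from each. Nbr1, a receptor with a similar domain plan, rose by 0.42 ± 0.058 in WAT and by 0.39 ± 0.062 in SM (adjusted p = 3.21e-06 and 2.07e-05), close to the minimum fold, and showed 0.12 in LIV. The receptor group thus had a median change of 0.43 in WAT, 0.12 in LIV and 0.42 in SM, against 0.0053, 0.032 and -0.004 over all genes.

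The 3 regulators included the gene with the greatest rise of the 35. Trp53inp1, a p53-induced protein that binds Atg8 proteins, read 8.14, 8.23, 8.39, 8.31 and 7.85 in fed WAT and 10.51, 10.53, 10.51, 11.23 and 10.36 in fasted WAT. In SM it read 8.11, 7.97, 8.08, 8.09 and 7.97 in the fed arrays and 9.03, 9.35, 9.26 and 9.52 in the fasted arrays, with 9.50 in the array left out. In LIV it read 10.02, 9.64, 9.68 and 9.70 in the fed arrays, with 9.48 in the array left out, and 10.29, 10.17, 10.12, 10.08 and 10.15 in the fasted arrays. The groups were wide apart in WAT and SM, whereas in LIV the highest fed array (10.02) came close to the lowest fasted array (10.08) without overlap. Trp53inp1 rose by 2.44 ± 0.12 in WAT, a 5.45-fold change (adjusted p = 4.91e-14), by 1.25 ± 0.13 in SM (adjusted p = 2.93e-08) and by 0.40 ± 0.13 in LIV (adjusted p = 0.0393). The call in LIV was lost when any of 7 of the 9 LIV arrays was left out, at adjusted p of 0.0559 to 0.125. It was also lost with ordinary in place of moderated variances (adjusted p = 0.057). The paper's list of genes regulated in all 3 tissues does not hold Trp53inp1. All 3 differences between tissues were called, 2.05 between WAT and LIV, 1.20 between WAT and SM and 0.85 between SM and LIV.

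Trp53inp2, a related protein also called DOR that leaves the nucleus to bind Atg8 proteins when nutrients are short, fell in WAT and SM and rose in LIV. In WAT it read 11.52, 11.54, 11.61, 11.63 and 11.58 in the fed arrays and 10.66, 11.28, 11.05, 10.36 and 11.02 in the fasted arrays. In LIV it read 10.24, 10.38, 10.22 and 10.24 in the fed arrays, with 10.02 in the array left out, and 10.85, 10.66, 10.66, 10.60 and 10.80 in the fasted arrays. In SM it read 11.53, 11.43, 11.49, 11.35 and 11.54 in the fed arrays and 11.02, 11.03, 10.95 and 10.98 in the fasted arrays, with 10.88 in the array left out. The groups did not overlap in any tissue, and the fasted WAT arrays were spread widely (SD 0.36 against 0.047 in fed WAT). The changes were -0.70 ± 0.10 in WAT (adjusted p = 6.15e-06), 0.44 ± 0.11 in LIV (adjusted p = 0.00585) and -0.47 ± 0.11 in SM (adjusted p = 0.00175), and those in WAT and SM differed from LIV by -1.15 and -0.92. Tfeb, the transcription factor that activates many autophagy and lysosome genes, was called in no tissue. It showed 0.24 ± 0.073 in LIV (adjusted p = 0.026) and 0.25 ± 0.073 in SM (adjusted p = 0.0121). Both passed the test and missed the minimum fold, and fed and fasted arrays in the fit did not overlap. The left-out array fasted SM 5 read 9.10, below the lowest fed SM array (9.26). For WAT the change of Tfeb was 0.014 ± 0.069 (adjusted p = 0.939).

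The changes of the 35 genes in WAT and SM resembled each other more than those of other pairs of tissues. Over the 35 genes, the changes in WAT and SM had a Pearson correlation of 0.73 and a Spearman correlation of 0.77, against 0.38 and 0.35 over all 18781 genes. For WAT and LIV the values were 0.20 and 0.19 (0.22 and 0.19 over all genes), and for SM and LIV 0.27 and 0.31 (0.17 and 0.15). These are descriptions across genes, which are not independent replicates, and the tissues share platform, normalization and, by the study's account, the 5 fed and 5 fasted mice, but no array. The changes were called different between WAT and LIV for 11 of the 35 genes (16.1% of all genes), between WAT and SM for 7 (15.1%) and between SM and LIV for 10 (15.3%). The 7 that differed between WAT and SM were Ulk1, Atg13, Atg14, Atg4c, Map1lc3a, Gabarapl1 and Trp53inp1.

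**Figure D3:**
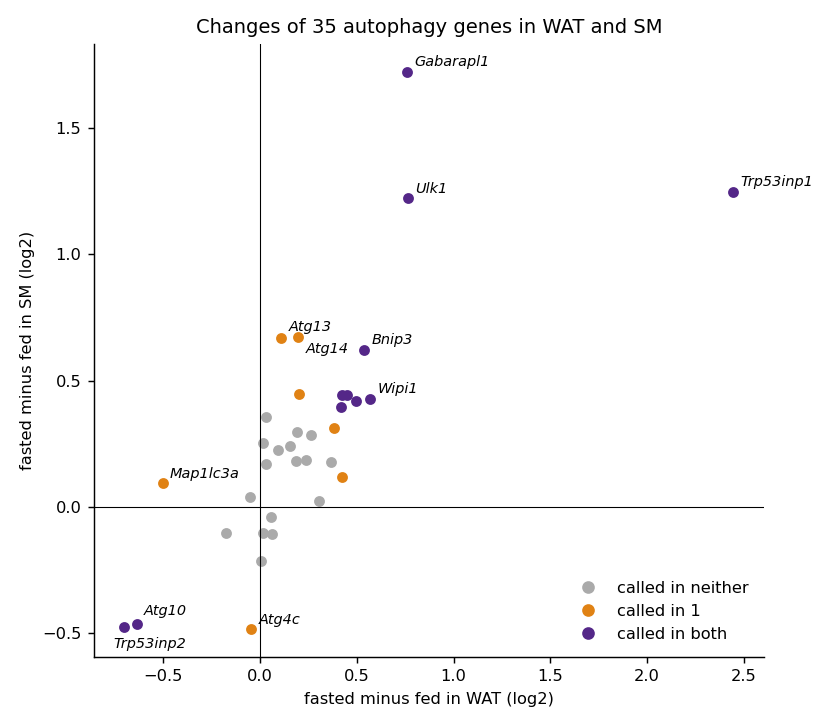
Change of each of the 35 autophagy genes in WAT (horizontal axis) against its change in SM (vertical axis), both fasted minus fed on the log2 scale; purple genes were called in both tissues, orange genes in 1 and grey genes in neither. Trp53inp1 lies far to the right (2.44 in WAT, 1.25 in SM), Gabarapl1 and Ulk1 lie higher in SM than in WAT, and Atg10 and Trp53inp2 lie at the lower left.

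Fed levels of the same genes differed between the tissues, as did those of a large share of all genes. The level was called different between fed WAT and fed LIV for 20 of the 35 genes (44.4% of all genes), between fed SM and fed LIV for 24 (47.9%) and between fed SM and fed WAT for 15 (47.2%). Of the fed means, 16 were highest in LIV, 11 in SM and 8 in WAT. The conjugation genes Atg5 and Atg7 were higher in LIV than in SM, with Atg5 at 8.51 in LIV, 7.31 in SM and 6.75 in WAT, and Atg7 at 8.89 in LIV, 8.73 in WAT and 7.02 in SM. The difference of Atg7 between fed WAT and fed LIV, -0.17 ± 0.074, was not called (adjusted p = 0.0592). Tfeb was highest in SM, at 9.37 against 7.39 in WAT and 7.12 in LIV, and Atg9a at 9.35 in SM against 8.68 in LIV and 7.54 in WAT. These 4 were named after their levels were seen. Each comparison is within 1 probe set, and levels of different genes were not compared.

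Markers of other cells moved with fasting in the same tissues. In WAT the mean of the 9 adipocyte markers was 11.7 to 11.9 in fed and 11.2 to 11.6 in fasted arrays, with 2 of the 9 called down, and of the 11 macrophage markers 2 were called up and 1 down (means 7.31 to 7.44 fed and 7.27 to 7.72 fasted). In LIV 5 of the 11 macrophage markers were called down, with means of 6.45 to 6.82 in fed and 6.11 to 6.49 in fasted arrays, and 1 of the 9 adipocyte markers was called up, with means of 5.37 to 5.62 in fed and 5.64 to 5.76 in fasted arrays. The part of these in the changes of autophagy genes in WAT and LIV was not tested. In SM 3 of the 9 adipocyte markers were called down, with means of 7.90 to 9.81 in fed and 7.95 to 8.79 in fasted arrays. Of the 11 macrophage markers 2 were called up in SM, with means of 5.61 to 5.92 in fed and 5.68 to 6.08 in fasted arrays, and their part was not tested. With the mean of the adipocyte markers as a covariate within SM, 14 of the 15 calls held and Pik3c3 fell under the minimum fold at 0.37 (adjusted p = 6.81e-04). With that of the slow fibre markers, 14 of the 15 held and Nbr1 fell under the minimum fold at 0.37 (adjusted p = 7.47e-05).

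Autophagy genes outside the 38 were examined in 4 further lists of 66 measured genes. Of these 13 rose and 5 fell in WAT, 4 rose and 1 fell in LIV, and 20 rose and 2 fell in SM. Among all genes 7.99% were called up and 7.75% down in WAT. The same shares were 3.54% and 4.01% in LIV and 7.8% and 5.78% in SM. In LIV the share of the 66 called in either direction was near that of all genes. Among 21 genes of signalling to autophagy, 9 rose and 2 fell in WAT, 2 rose in LIV and 6 rose in SM. Ddit4, which in some cell types restrains the kinase mTORC1, a brake on Ulk1, rose in all 3 tissues. Its rise was 2.97 ± 0.19 in WAT, 2.16 ± 0.20 in LIV and 4.15 ± 0.20 in SM. In the paper's cultured adipocytes, mTORC1 activity did not change when Ddit4 was overexpressed. Depp1, a FoxO-induced gene, rose by 2.89 ± 0.16 in WAT and by 4.61 ± 0.17 in SM, and Foxo1 itself by 0.55 ± 0.061 in LIV and by 1.28 ± 0.061 in SM. The adjusted p of these rises were at most 2.43e-07.

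Of 12 further core and membrane proteins, 3 rose and 2 fell in WAT, 1 fell in LIV, and 3 rose and 1 fell in SM. Of all genes 7.99% were called up and 7.75% down in WAT, 3.54% and 4.01% in LIV, and 7.8% and 5.78% in SM. The count of 1 in 12 in LIV was near the share of all genes called in either direction. Zfyve1, whose protein marks the membrane platform where autophagosomes form, rose by 1.42 ± 0.080 in SM and by 0.46 ± 0.075 in WAT. Bcl2l1, a survival protein that binds beclin 1, rose by 1.02 ± 0.088 in WAT and by 0.76 ± 0.093 in SM, and Tmem41b, a lipid scramblase of the endoplasmic reticulum, fell by 0.59 ± 0.087 in WAT and by 0.47 ± 0.092 in LIV. The adjusted p of these 6 changes were at most 6.25e-04. Whether the probe set used for Tmem41b reads the gene itself or a near-identical copy was not tested.

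Of 17 further cargo receptors 1 rose in WAT (7.99% of all genes did), 2 rose in LIV (3.54%), and 7 rose and 1 fell in SM (7.8% and 5.78%). These counts rest on the minimum fold, since 10 others in WAT and 0 in SM passed the test under it, and the median change was 0.17 in WAT and 0.14 in SM. Retreg1, a receptor for the endoplasmic reticulum, rose by 1.19 ± 0.13 in WAT, where its fed level of 4.87 lay below the median of all values (5.02), by 0.57 ± 0.14 in LIV and by 0.98 ± 0.14 in SM. Tbk1, a kinase that phosphorylates cargo receptors, rose by 1.02 ± 0.062 in SM, and Tax1bp1, a ubiquitin-binding receptor, by 0.60 ± 0.064. Of 16 genes for fusion of autophagosomes with lysosomes, 4 in WAT, 4 in LIV and 6 in SM passed the test under the minimum fold. Of the same list 1 fell in WAT (7.75% of all genes did), 0 were called in LIV (3.54% up and 4.01% down) and 4 rose in SM (7.8%). The greatest of these rises in SM were those of Vps18, a subunit of the HOPS tether (0.58 ± 0.086), Plekhm1, an adaptor between Rab7 and Atg8 proteins (0.52 ± 0.075), and Epg5, a further tether (0.46 ± 0.047). The adjusted p of all these changes were at most 0.00561.

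**Figure D4:**
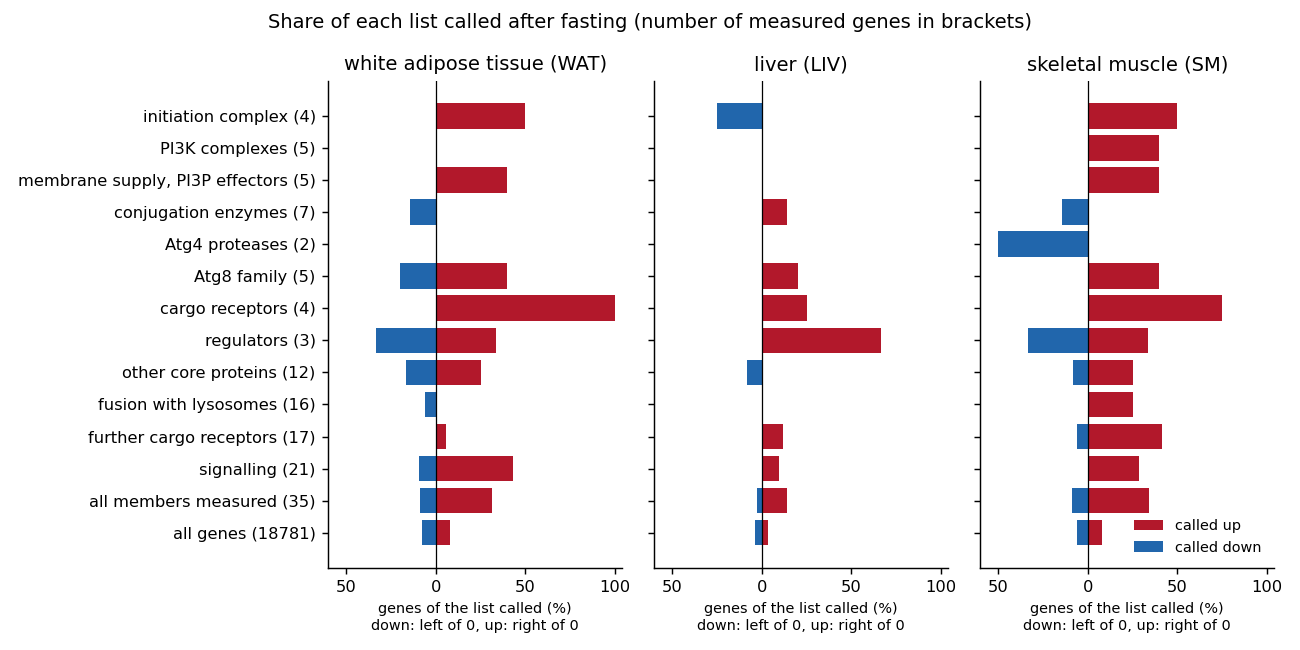
Share of measured genes called up (red, right of 0) and down (blue, left of 0) in WAT, LIV and SM for the 8 role groups of the autophagy genes, 4 further lists, the 35 genes together and all 18781 genes, with the number of measured genes in brackets. Cargo receptors reach 4 of 4 in WAT and 3 of 4 in SM, the conjugation enzymes 0 of 7 called up in both, and several groups hold so few genes that 1 gene is a large share.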

How the data were processed

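Total RNA was hybridised to Affymetrix Mouse Gene 1.1 ST arrays, 1 per mouse and tissue. The deposited values are log2 expression of 28815 probe sets, made by the authors with RMA (background correction, quantile normalization, median polish) in Partek per the labels, and were used as given. Quantile normalization hides any change in total mRNA. Platform annotation gave 21153 probe sets with 1 symbol and 18781 genes. The members and gene lists were chosen with earlier results of these data known.

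The R package limma 3.58.1 (R 4.3.3) estimated 1 mean per group for every probe set, with moderated variances, from 28 arrays without fed LIV 4 and fasted SM 5; the paper names fasted SM 1 instead, which was run as an alternative. Contrasts were fasted minus fed in each tissue, their differences between tissues and fed levels. Calls needed a Benjamini-Hochberg adjusted p under 0.05, taken over every probe set, with a change of at least 1.3-fold. With 4 or 5 arrays per group the number of arrays limits the precision. The tissues came from the same 5 mice per diet, but replicate numbers do not link tissues of 1 mouse in the labels, so arrays were taken as independent. The procedure was tested on simulated data. Values in every array were given for members called in all 3 tissues or in opposite directions and for the 6 of largest change per tissue; of each further list, at most 3 genes were named. Promoter sequences are from RefSeq (GRCm38.p6). Tables and plots used Python 3.11.15 with pandas 2.3.3 and matplotlib 3.10.9. Alternatives were other sets of arrays, array weights, ordinary variances, tissues fitted alone, replicate blocks, cyclic loess, no dim probe sets, averaged probe sets, other thresholds, each array left out and, added after the data were seen, marker means as covariates in SM.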

Additional observations from a re-analysis of the deposited data

Results flagged for a closer look

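In 11 of 210 groups of 4 or 5 arrays, the highest or lowest array stood apart from the rest of its group by Dixon's test, and chance alone flags about 1 group in 20. In fasted WAT these were array 4 for Trp53inp1 (11.23, next 10.53) and Atg2b (8.62, next 8.36), and array 5 for Wipi1 (8.33, next 8.72) and Atg4c (7.19, next 6.97). In fasted LIV they were array 4 for Gabarapl1 (11.54, next 11.37) and Nbr1 (10.39, next 10.24), and array 2 for Gabarap (11.61, next 11.67). In fed LIV they were array 3 for Gabarapl2 (11.02, next 10.95) and Sqstm1 (11.66, next 11.55), array 1 for Trp53inp1 (10.02, next 9.70) and array 2 for Trp53inp2 (10.38, next 10.24).

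The fasting change differed between tissues in 28 of 105 tests of the difference itself, called as the changes were. Taking WAT minus LIV, the difference was 0.59 for Ulk1, 0.48 for Ulk2, 0.43 for Rb1cc1, 0.59 for Atg9a, 0.45 for Wipi1 and -0.53 for Atg10. In the same comparison it was -0.87 for Map1lc3a, 0.74 for Gabarapl1, 0.51 for Sqstm1, 2.05 for Trp53inp1 and -1.15 for Trp53inp2. Taking WAT minus SM, it was -0.46 for Ulk1, -0.56 for Atg13, -0.48 for Atg14, 0.44 for Atg4c, -0.60 for Map1lc3a, -0.96 for Gabarapl1 and 1.20 for Trp53inp1. Taking SM minus LIV, it was 1.05 for Ulk1, 0.69 for Atg13, 0.39 for Pik3c3, 0.51 for Atg14 and 0.39 for Atg2b. In that comparison it was also 0.38 for Atg16l2, 1.70 for Gabarapl1, 0.51 for Sqstm1, 0.85 for Trp53inp1 and -0.92 for Trp53inp2. Atg9a and Atg16l2 differed in this way although neither was called within a tissue.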

How the results depend on the processing

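Of the 35 called changes, 27 kept their call at the same thresholds in 12 refits and with each of 28 arrays left out, and 0 were reversed; the others were Ulk2 and Trp53inp1 in LIV, Rb1cc1, Atg2b and Nbr1 in WAT, and Pik3c3, Wipi1 and Nbr1 in SM. With all 30 arrays 0 genes fell in LIV and the median change in LIV was 0.12. Without a minimum fold 18 genes rose in WAT, 8 in LIV and 21 in SM, with 5 rising in all 3 tissues. At that setting 2 fell in LIV, 3 went in opposite directions and 25 fed levels differed between SM and WAT. Dropping the minimum fold also added 2857 of all 18781 genes to the calls in WAT, 1487 in LIV and 2393 in SM, in either direction. These counts and those at 1.5-fold below therefore cannot be set beside the shares of all genes called at 1.3-fold. At a minimum of 1.5-fold 3 rose in WAT, 1 in LIV and 6 in SM, 0 fell in LIV or SM, 0 rose in all 3 tissues and 0 went in opposite directions. At that minimum the changes of 6 genes differed between WAT and LIV, of 3 between WAT and SM and of 5 between SM and LIV, and the fed levels of 9 between SM and WAT. Leaving out single arrays gave 1 to 2 genes in opposite directions and 6 to 11 whose change differed between SM and LIV. Without fasted LIV 1 that last count was 6, and without fasted LIV 1, fasted LIV 2 or fed LIV 2 the opposite calls were 2. Equal replicate numbers did not deviate together throughout (correlations -0.25 to 0.16 for fed and fasted arrays of 1 tissue, with 3 of 13 over 0.1, and -0.12 to 0.18 for 2 tissues of 1 diet, with 6 of 26 over 0.1), and a replicate block within tissue kept 34 of the 35 calls, with Nbr1 in SM at 0.38 (adjusted p = 0.0027) under the minimum fold. A random replicate block kept all 35. Without dim probe sets all 35 calls held. Changes near 1.3-fold rest on few arrays, 4 or 5 a group, and causes were not tested.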
